A study of Mus musculus with 8 samples.

Results

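The 7 genes described here are the mouse RUNX and ETO families, *Runx1*, *Runx2*, *Runx3*, *Cbfb*, *Runx1t1*, *Cbfa2t2* and *Cbfa2t3*, taken by gene symbol from the 54838 genes of the deposited count table. RNA was measured in sorted acute myeloid leukemia (AML) cells that carry the RUNX1-RUNX1T1 fusion, to ask how a block of pyrimidine synthesis alters gene expression in leukemia cells in vivo. The cells, on a C57BL/6 background, had been transplanted into Ptprca mice that were sub-lethally irradiated per the labels. The 4 Vehicle samples came from mice given vehicle and the 4 AG636 samples from mice given AG636, an inhibitor of the pyrimidine enzyme DHODH, at 100 mg/kg by gavage b.i.d., and per the study the treatment lasted 1 day. All 8 samples share the fusion, the transplantation and the sort, which per the study kept cells with cKit on the surface and little or no CD11b.

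Several facts limit these groups as a model. The cells came from bone marrow and spleen, and the tissue of each sample is not stated. Whether each sample is a separate mouse is not stated, and the study names fewer mice per group than there are samples, so that the p-values measure the spread between samples, which may share a mouse. The study describes the leukemia as an established one, thawed from a sick mouse, so that the samples may share a single founding leukemia. Whether the fusion was built from human or mouse sequence, and which 3′ end its transcript carries, is not given in the sources used here. The counts of *Runx1* and *Runx1t1* may therefore hold reads of the fusion or none, and no value below tells the fusion apart from the endogenous genes.

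RUNX proteins are transcription factors that bind DNA through a runt domain. CBFβ, the product of *Cbfb*, binds no DNA itself but holds the runt domain in its DNA-binding form. RUNX1 is needed for blood stem cells to form and for megakaryocytes and lymphocytes to mature, RUNX2 drives bone formation, and RUNX3 acts in T cells, NK cells and neurons. The ETO proteins RUNX1T1, CBFA2T2 and CBFA2T3 bind no DNA by themselves and bring the NCoR and SIN3 corepressors and histone deacetylases to transcription factors. CBFA2T3 is part of the TAL1, LMO2, LDB1 and GATA complex of erythroid and megakaryocyte progenitors. The RUNX1-RUNX1T1 fusion of core-binding factor AML joins the runt domain of RUNX1 to nearly all of RUNX1T1.

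The libraries were made with a kit that reads the 3′ end of poly-A transcripts, and they held 6120030 to 7162036 counts each. Levels are given as CPM after scaling of the library sizes by TMM factors, and 3 counts, taken as the floor, equaled 0.434 to 0.479 CPM. AG636 replicates differed more among themselves than Vehicle replicates did. A chi-square statistic of the counts, per degree of freedom, was 3.90 to 4.59 among Vehicle replicates 1 to 3, 9.31 to 13.2 between Vehicle replicate 4 and those 3, and 14.1 to 25.1 among the AG636 replicates. Fold changes and counts of calls were also computed without Vehicle replicate 4 and AG636 replicate 3, the sample with the highest sum of mast cell genes. The exon overlaps and near copies of the 7 genes carried few counts. *Gm26626*, *Runx2os1* and *Gm10612*, the opposite-strand genes that share exon bases with *Runx1*, *Runx2* and *Cbfa2t3*, held 0, 4 and 5 counts in all 8 samples together, and the longest run of bases that transcripts of any 2 of the 7 genes share was 45, between *Runx3* and *Runx1t1*.

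The label AML was checked against lineage genes. Several genes of granulocytes, of monocytes or of white blood cells in general were close to absent. *Cebpa*, the master factor of granulocytes, had 0 or 1 count in every sample, *Itgam*, which encodes the CD11b used in the sort, had 0 to 4, *Mpo*, the myeloperoxidase gene, had 3 to 33, and *Ptprc*, which encodes CD45, had 13 to 64. The neutrophil genes *S100a8* and *S100a9* were higher, at 37 to 526 and 28 to 489 counts, as was *Spi1*, a myeloid factor gene, at 171 to 349. Several erythroid genes and some mast cell genes were abundant. *Car1*, an erythroid carbonic anhydrase, lay between 2427 and 4144 CPM, *Klf1*, a master factor of red cells, between 112 and 239 CPM, and *Ms4a2*, a subunit of the IgE receptor of mast cells and basophils, between 540.3 and 1074 CPM. *Gata1* lay between 196 and 266 CPM and *Kit*, which encodes the cKit used in the sort, between 153 and 252 CPM. The sort selected on CD11b and cKit, so that the levels of *Itgam* and *Kit* do not bear on the label. The mast cell and basophil genes were uneven, with *Cpa3* between 34.4 and 285 CPM and *Cma1* between 22.4 and 277 CPM. *Fcer1a* lay between 1.52 and 17.9 CPM and *Tpsb2* between 2.04 and 18.2 CPM. *Mcpt8* and *Prss34* were too low to be tested. The values below are thus those of cells labeled AML whose transcripts include several erythroid and some mast cell genes at high levels.

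**Figure D1:**
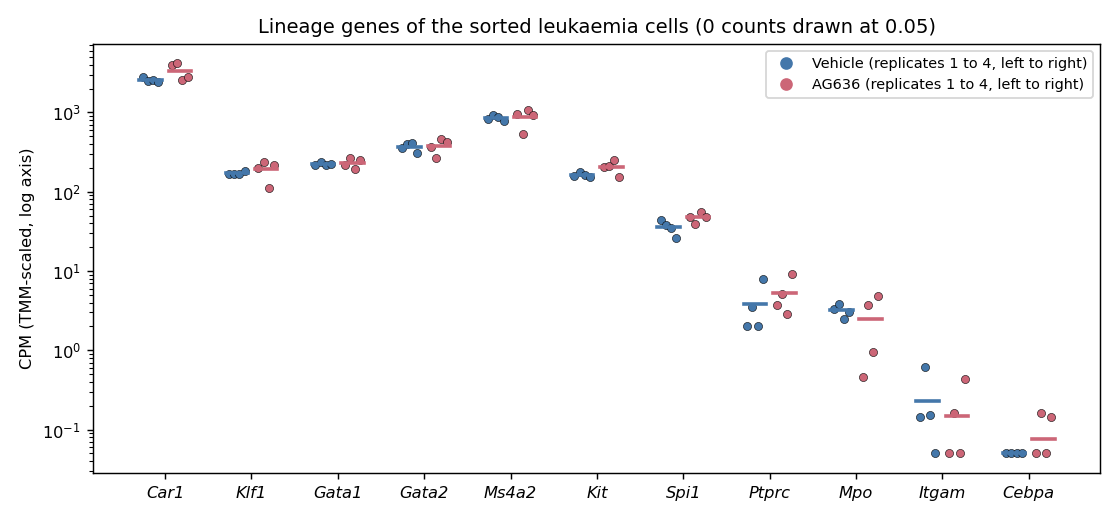
Lineage genes in every sample, as TMM-scaled CPM on a log axis, with Vehicle in blue, AG636 in red, replicates 1 to 4 from left to right and a bar at each group mean (0 counts are drawn at 0.05). *Car1* to *Kit* lie at or above 112 CPM in all 8 samples, while *Mpo* stays at or below 4.77 CPM and *Cebpa* at 0 or 1 count.

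Marker lists of other cells were summed in each sample. The T and NK cell list was the only 1 of 9 lists whose sums did not overlap between the groups, at 25.7 to 29.3 CPM in Vehicle and 47.4 to 61.9 CPM in AG636. *Cd247*, which encodes a T cell receptor signaling chain, was its most abundant marker and rose by 1.19 on the log2 scale (SE 0.17, limma adjusted p = 0.0025). *Cd3e* had 0 to 3 counts in Vehicle and 3 to 8 in AG636, and *Cd3d* 0 to 8 and 3 to 14. Both were too low to be tested. So were *Cd3g*, at 1 to 4 and 1 to 5 counts, and *Trbc1*, at 2 to 10 and 1 to 13. *Trbc2*, *Lck* and *Nkg7* were tested and not called. Their log2 fold changes were 0.71, 0.33 and 0.12 (limma adjusted p = 0.502, 0.564 and 0.948). The mast cell and basophil list, led by *Ms4a2*, summed to 1152 to 1524 CPM in Vehicle and 927 to 2142 CPM in AG636, and the erythroid list, led by *Car1*, to 6347 to 10293 and 8845 to 10810 CPM. The leukemic progenitor list, led by *Myb*, summed to 606 to 737 CPM in Vehicle and 683 to 984 CPM in AG636. The mature myeloid list, led by *S100a8*, summed to 60.4 to 119.7 CPM in Vehicle and 32.7 to 224 CPM in AG636, and the B cell list, led by *Cd79b*, to 6.76 to 15.4 and 13.1 to 26.6 CPM. In the lists whose sums overlapped, single markers called higher were *Cd79a* of B cells and the globin gene *Hbb-bt* of the erythroid list. *Cd79a* lay at 0.291 to 1.06 CPM in Vehicle and 1.596 to 3.18 CPM in AG636 (limma adjusted p = 0.0266). *Hbb-bt* lay at 17.8 to 37.4 and 40.1 to 60.2 CPM (limma adjusted p = 0.0238). Neither gene overlapped between the groups. The globin genes *Hbb-bs*, *Hba-a1* and *Hba-a2* did overlap and were not called (limma adjusted p = 0.518, 0.716 and 0.249). The megakaryocyte list, led by *Itga2b*, summed to 27.2 to 32.7 CPM in Vehicle and 21.7 to 75.0 CPM in AG636, with *Gp1bb* at 0 counts in every sample. The plasmacytoid dendritic list, led by *Bst2*, and the stroma and endothelium list, led by *Kdr*, stayed at or below 36.0 and 12.1 CPM, with *Cxcl12* and *Sp7* at 0 counts in every sample. In bulk samples such as these, fewer cells of a type and less RNA per cell cannot be told apart.

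To determine which of the 7 genes these cells express, levels were compared per kilobase of exon length. On this scale *Cbfb* had the highest mean level over the 8 samples, 50.8 CPM per kilobase, followed by *Cbfa2t3* at 34.1, *Runx1* at 21.8 and *Runx3* at 19.96. *Cbfa2t2* at 3.09, *Runx1t1* at 2.05 and *Runx2* at 0.127 CPM per kilobase were far lower. The ranges over the samples overlapped between *Cbfb* and *Cbfa2t3*, between *Cbfa2t3* and *Runx1*, between *Runx1* and *Runx3*, and between *Cbfa2t2* and *Runx1t1*. Within a sample, *Cbfb* was above *Cbfa2t3* in 7 of 8 samples, *Cbfa2t3* above *Runx1* in 7 and *Runx1* above *Runx3* in 6, so that the order of these neighbors was not the same in every sample, while *Cbfa2t2* was above *Runx1t1* in 8 of 8. The steps from *Runx3* (14.9 to 23.7) down to *Cbfa2t2* (2.36 to 4.39) and from *Runx1t1* (1.34 to 2.93) down to *Runx2* (0.0861 to 0.198 CPM per kilobase) had no overlap. A 3′ library yields about the same number of reads from a long as from a short transcript. Without the division by length the order of *Cbfb* moved from 1 to 3, behind *Cbfa2t3* and *Runx1*. In CPM *Runx1*, at 191 to 348, also lay above *Runx3*, at 74.6 to 118, with no overlap over the 8 samples.

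**Figure D2:**
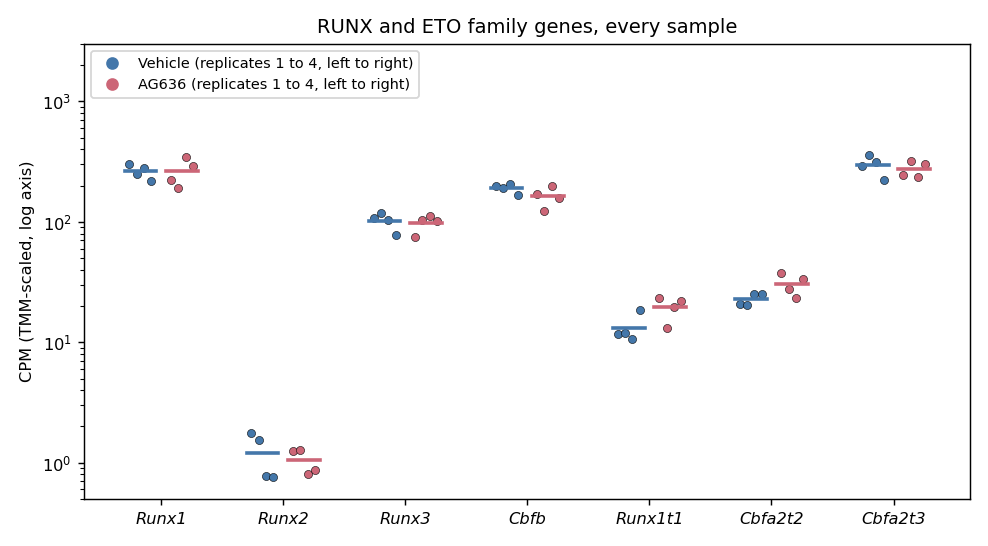
The 7 RUNX and ETO family genes in every sample, as TMM-scaled CPM on a log axis, with Vehicle in blue, AG636 in red, replicates 1 to 4 from left to right and a bar at each group mean. *Runx2* lies below 2 CPM in all samples, the groups overlap for every gene, and *Runx1t1* and *Cbfa2t2* have the largest upward shift of the AG636 mean.

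The 3 RUNX genes share a feature of their promoters that the choice of genes did not use. In RefSeq promoter windows (GRCm38.p6, 250 bases before to 50 after a gene's start), the RUNX binding motif TGTGGTT was searched on both strands and was present in 1731 of 32851 windows (5.27%). A pair of motifs in the same orientation with starts 8 bases apart was present in 5 windows (0.0152%), those of *Runx1*, *Runx2*, *Runx3*, *Gm16225* and the olfactory receptor gene *Olfr24*. No other spacing or orientation of a pair was counted. The share thus holds for this arrangement alone and sets no chance level for the RUNX genes. The *Gm16225* window overlaps that of *Runx3* and is read from the other strand. The windows matched 6 of the 7 genes. The paired motifs of the RUNX genes are shown because all 3 genes of the family hold them. The motif letters are alike because the search required them. The flanking letters were not required and are not the same in all 3 genes. *Runx1* and *Runx2* share aaac before and agt after the pair, and the letter between the motifs is g in all 3. Capitals mark AACCACA, the reverse complement of the motif, and each sequence is read 5′ to 3′ on the strand of its gene.
*Runx1*, chr16:92826028-92826052, − strand: taaacAACCACAgAACCACAagttg
*Runx2*, chr17:44814586-44814610, − strand: caaacAACCACAgAACCACAagtgc
*Runx3*, chr4:135120505-135120529, + strand: ccctcAACCACAgAACCACAaggcc
Counted with the RefSeq start as the first base, the first motif base lies at +28 of *Runx1*, +23 of *Runx2* and −135 of *Runx3*. The second RefSeq windows of *Runx1* and *Runx3*, at other starts, held no motif, and neither did those of *Cbfb*, *Cbfa2t2* and *Cbfa2t3*. A match is a run of letters and not a measurement of binding, and since reads come from the 3′ end, the counts do not tell which start was used.

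*Runx1* (ENSMUSG00000022952, chromosome 16, 92601466 to 92826149, − strand, GRCm38) was measured at 304, 248, 281 and 217 CPM in Vehicle replicates 1 to 4 and at 224, 191, 348 and 289 CPM in AG636 replicates 1 to 4. The lowest and the highest value were both in the AG636 group, in replicates 2 and 3, and the Vehicle values lay between them. The group means were 263 ± 38.0 CPM in Vehicle and 263 ± 69.8 CPM in AG636 (SD, n = 4 each). The log2 fold change of AG636 over Vehicle was −0.03 (SE 0.18, 95% interval −0.41 to 0.36, limma adjusted p = 0.937). Over 19 alternative analyses it ranged from −0.24 to 0.11 and its adjusted p from 0.299 to 0.999. The spread of *Runx1* in the AG636 group moved with the mast cell and basophil list, whose sums were 1403, 927, 2142 and 1586 CPM in AG636 replicates 1 to 4, in the same order from lowest to highest as *Runx1*. In Vehicle the order was not the same, with list sums of 1308, 1524, 1488 and 1152 CPM in replicates 1 to 4, lowest where *Runx1* was lowest but highest in replicate 2, where *Runx1* was second lowest. The part of these cells in the *Runx1* level was not tested.

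*Runx3* (ENSMUSG00000070691, chromosome 4, 135120652 to 135177990, + strand) was measured at 108, 118, 103 and 77.6 CPM in Vehicle replicates 1 to 4 and at 74.6, 104, 112 and 101 CPM in AG636 replicates 1 to 4. Each group had 1 low sample, Vehicle replicate 4 and AG636 replicate 1, and the other 6 lay between 101 and 118 CPM. The means were 102 ± 17.4 and 97.9 ± 16.1 CPM (SD, n = 4 each), and the log2 fold change was −0.06 (SE 0.15, 95% interval −0.39 to 0.28, limma adjusted p = 0.840). *Runx2* (ENSMUSG00000039153, chromosome 17, 44495987 to 44814797, − strand) had 12, 10, 5 and 5 counts in Vehicle and 8, 8, 5 and 6 counts in AG636. It was detected in every sample above the floor of 3 counts but was too low for the filter, which asks for about 10 counts in 4 samples, and was not tested.

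*Cbfb* (ENSMUSG00000031885, chromosome 8, 105170674 to 105217989, + strand), the common partner of the RUNX proteins, was measured at 197, 192, 206 and 168 CPM in Vehicle and at 171, 123, 198 and 159 CPM in AG636. AG636 replicates 2 and 4 were below every Vehicle sample, and replicates 1 and 3 were within the Vehicle range. The means were 191 ± 16.2 and 163 ± 31.2 CPM (SD, n = 4 each), and the log2 fold change was −0.24 (SE 0.13, 95% interval −0.54 to 0.05, limma adjusted p = 0.243). The estimate was negative in the 19 alternatives, from −0.38 to −0.12, and its adjusted p lay between 0.0676 and 0.486.

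The ETO genes were led by *Cbfa2t3* (ENSMUSG00000006362, chromosome 8, 122625141 to 122699109, − strand), which was measured at 289, 357, 316 and 222 CPM in Vehicle and at 247, 318, 234 and 302 CPM in AG636. All 4 AG636 values were within the Vehicle range. The means were 296 ± 56.8 and 275 ± 41.2 CPM (SD, n = 4 each), and the log2 fold change was −0.10 (SE 0.15, 95% interval −0.43 to 0.23, limma adjusted p = 0.705).

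*Runx1t1* (ENSMUSG00000006586, chromosome 4, 13743436 to 13893649, + strand), the ETO portion of the fusion, was measured at 11.7, 11.8, 10.7 and 18.4 CPM in Vehicle and at 23.3, 13.1, 19.6 and 21.8 CPM in AG636. Of the AG636 samples 3 were above every Vehicle sample, and replicate 2 was above only Vehicle replicates 1 to 3. The means were 13.1 ± 3.55 and 19.5 ± 4.52 CPM (SD, n = 4 each), 1.48-fold higher in AG636 in the fit (95% interval 1.06 to 2.09). This difference did not pass the test after adjustment (log2 fold change 0.57, SE 0.22, limma adjusted p = 0.112). It passed in 2 of 19 alternatives, with sample quality weights (log2 fold change 0.74, limma adjusted p = 0.0217) and without AG636 replicate 2 (0.74, limma adjusted p = 0.0307), and the adjusted p over all 19 ranged from 0.0217 to 0.263. Its counts were low, at 69 to 151 per sample. How far these, rather than the spread between samples, set its SE was not tested.

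*Cbfa2t2* (ENSMUSG00000038533, chromosome 2, 154436481 to 154539356, + strand), a widely expressed member of the family, was measured at 20.7, 20.4, 25.1 and 25.0 CPM in Vehicle and at 37.9, 27.9, 23.5 and 33.5 CPM in AG636. AG636 replicates 1, 2 and 4 were above every Vehicle sample and replicate 3 was within the Vehicle range. The means were 22.8 ± 2.57 and 30.7 ± 6.34 CPM (SD, n = 4 each), 1.34-fold higher in AG636 in the fit (95% interval 1.04 to 1.71). Again the difference did not pass after adjustment (log2 fold change 0.42, SE 0.16, limma adjusted p = 0.107). It passed without AG636 replicate 3 (0.54, limma adjusted p = 0.0321) and without both Vehicle replicate 4 and AG636 replicate 3 (0.61, limma adjusted p = 0.0329), and the adjusted p over the 19 alternatives ranged from 0.0321 to 0.239. A pseudogene with a long shared run, *Cbfa2t2-ps1*, had 0 counts in every sample.

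Set together, 0 of the 6 tested members passed an adjusted p under 0.05 by limma-voom, against 1523 of 10911 tested genes, or 14.0% (597 higher in AG636, 5.47%, and 926 lower, 8.49%). At an unadjusted p under 0.05, 2 of the 6 were counted, *Runx1t1* and *Cbfa2t2*, against 3351 of all tested genes (30.7%), and edgeR and DESeq2 also called 0. This split turned under library size alone, where 918 genes were called higher and 571 were called lower (lower in 38.3% of the calls, against 60.8% with TMM factors). In 0 of the 6 members did the groups fail to overlap, against 2427 tested genes (22.2%). The median log2 fold change was −0.04 over the 6 members and −0.01 over all tested genes. The 95% intervals of *Runx1*, *Runx3*, *Cbfb* and *Cbfa2t3* included 0, with a lowest bound of −0.54 and a highest of 0.36. Those of *Runx1t1* and *Cbfa2t2* lay above 0 before adjustment for the number of genes tested.

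**Figure D3:**
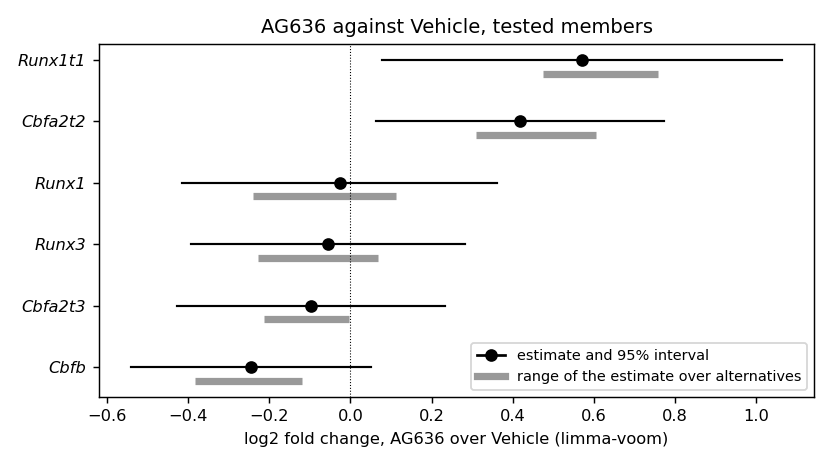
Log2 fold changes of AG636 over Vehicle for the 6 tested members, with the limma-voom estimate as a point, its 95% interval as a line and the range of the estimate over 19 alternative analyses as a gray bar. The points of *Runx1t1* (0.57) and *Cbfa2t2* (0.42) lie to the right of 0. That of *Cbfb* (−0.24) lies to the left, with an interval that includes 0, while the gray bars of *Runx1* and *Runx3* cross 0.

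To see whether the make-up of each family shifted, counts were compared within a sample, where library scaling cancels. *Runx1* made up 73.4, 67.4, 73.0 and 73.5% of the *Runx1*, *Runx2* and *Runx3* counts in Vehicle replicates 1 to 4 and 74.7, 64.5, 75.6 and 73.8% in AG636 replicates 1 to 4. Replicate 2 was the lowest in each group, and the means of 71.8 ± 2.95% and 72.1 ± 5.17% differed by less than either SD. Per kilobase of exon the means were 51.7 ± 3.53% and 52.2 ± 6.12%. *Cbfa2t3* made up 90.0, 91.7, 89.8 and 83.6% of the ETO family counts in Vehicle and 80.1, 88.6, 84.4 and 84.5% in AG636. The means of 88.8 ± 3.53% and 84.4 ± 3.47% differed by −4.38 percentage points, and the groups overlapped through Vehicle replicate 4. The counts of *Cbfb* per count of the RUNX genes were 0.476, 0.521, 0.534 and 0.568 in Vehicle and 0.572, 0.415, 0.430 and 0.406 in AG636. AG636 replicates 2 to 4 were below every Vehicle sample and replicate 1 was above all of them, so that the means of 0.525 ± 0.038 and 0.456 ± 0.078 differed by less than the SD of the AG636 group. These shares were not tested.

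**Figure D4:**
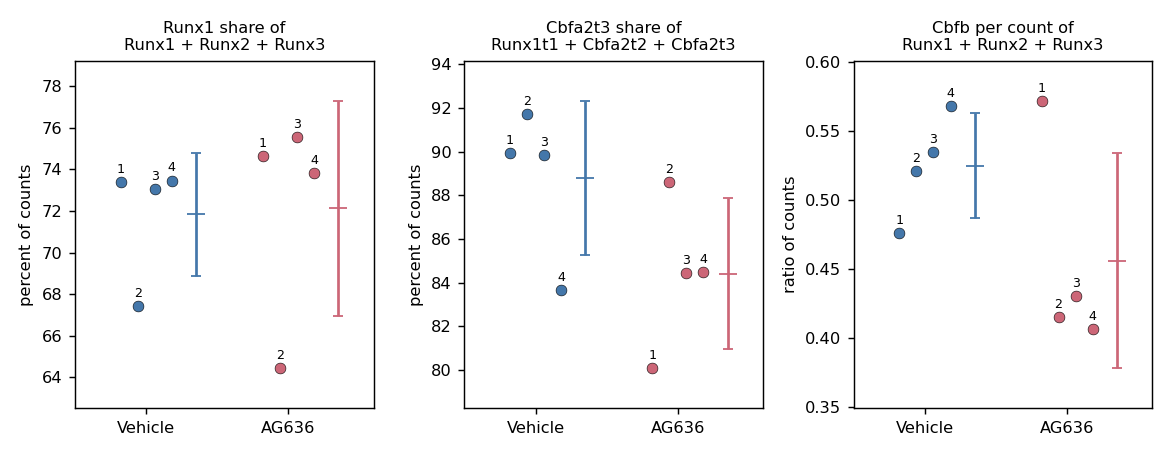
Make-up of the families in every sample, with Vehicle in blue, AG636 in red, the replicate number above each point and the mean ± SD at the side; the vertical axes do not start at 0. The left panel gives *Runx1* as a percent of RUNX counts, the middle panel *Cbfa2t3* as a percent of ETO counts and the right panel *Cbfb* counts per RUNX count, where AG636 replicate 1 (0.572) stands apart from AG636 replicates 2 to 4 (0.406 to 0.430).

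Transcription factors and adaptor proteins that work beside RUNX1 on DNA were examined next. Of 25 partner genes 20 were tested, 13 with a positive and 7 with a negative estimate, and their median log2 fold change was 0.06. By limma-voom 0 of the 20 passed (0.0%, against 14.0% of all tested genes), 5 had an unadjusted p under 0.05 (30.7% of all tested genes did), edgeR called 0 and DESeq2 called 1. *Myb*, a factor of immature blood cells, was the most abundant at 447 ± 47.6 CPM in Vehicle and 579 ± 139.6 CPM in AG636 (SD, n = 4 each; log2 fold change 0.35, SE 0.16, limma adjusted p = 0.163). AG636 replicates 1 and 2, at 681 and 717 CPM, were above every Vehicle sample. *Gata2*, a factor of stem cells and mast cells, was at 369.9 ± 46.9 and 381 ± 85.7 CPM (log2 fold change 0.02, SE 0.16, limma adjusted p = 0.945). Without AG636 replicate 3 the count was 2, *Gfi1b* (limma adjusted p = 0.0246) and *Smad3* (limma adjusted p = 0.0441), and without AG636 replicate 2 it was 1, *Ldb1* (limma adjusted p = 0.0142). Of the 5 untested partners, *Cebpa*, *Cebpb*, *Cebpe*, *Gfi1* and *Erg*, none had more than 12 counts in a sample.

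Of 19 corepressor genes 17 were tested and 1 passed (5.88%, against 14.0% of all tested genes). *Sin3b*, a scaffold for histone deacetylases, was measured at 112, 90.4, 95.5 and 88.8 CPM in Vehicle and at 126, 134.7, 137 and 106 CPM in AG636. It rose by 0.37 on the log2 scale (SE 0.11, limma adjusted p = 0.0461), although AG636 replicate 4 was below Vehicle replicate 1. The call was lost without any 1 of Vehicle replicates 2, 3 and 4 and AG636 replicates 1, 2 and 3, with adjusted p from 0.0805 to 0.123. *Ncor1*, a corepressor that ETO proteins bind, was at 653 ± 18.9 and 706 ± 57.7 CPM (log2 fold change 0.11, SE 0.08, limma adjusted p = 0.396). *Rcor1*, the scaffold of the KDM1A complex, was at 387 ± 14.9 and 362 ± 64.0 CPM (log2 fold change −0.11, SE 0.12, limma adjusted p = 0.556). The median of the list was −0.07.

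Of 22 coactivators and enzymes that modify RUNX proteins or work with them, 21 were tested and 6 passed (28.6%, against 14.0% of all tested genes), 3 in each direction, and the median of the list was 0.000521 on the log2 scale. *Kat6b*, a histone acetyltransferase, was measured at 15.3, 21.4, 14.2 and 17.6 CPM in Vehicle and at 32.5, 28.6, 26.5 and 23.8 CPM in AG636, with no overlap. It rose by 0.71 on the log2 scale (SE 0.15, limma adjusted p = 0.0146). *Fzr1* and *Cdc20* encode the activators of the anaphase-promoting complex, a ubiquitin ligase. *Fzr1* rose from 96.5 ± 11.6 to 139 ± 18.0 CPM (log2 fold change 0.53, SE 0.12, limma adjusted p = 0.0149) and *Cdc20* from 164 ± 33.1 to 237 ± 18.5 CPM (0.55, SE 0.13, limma adjusted p = 0.0181), neither with overlap. *Cdc20* shares 53 exon bases with *Elovl1* on the other strand, and since use of strand was not stated their reads may be mixed.

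Of the lower genes in that list, *Men1*, which encodes the menin scaffold of KMT2A complexes, was measured at 59.4, 53.9, 49.8 and 60.4 CPM in Vehicle and at 33.3, 42.5, 37.8 and 34.8 CPM in AG636. It fell by 0.59 on the log2 scale (SE 0.11, limma adjusted p = 0.0071) and passed in all 19 alternatives. *Prmt1*, an arginine methyltransferase that methylates RUNX1, fell from 259 ± 16.4 to 201 ± 17.7 CPM (log2 fold change −0.37, SE 0.09, limma adjusted p = 0.0214). The groups did not overlap for either gene. Leaving out single libraries removed the calls of the genes named from this list other than *Men1*. Without Vehicle replicate 1 or 3, *Kat6b* (adjusted p 0.0538 and 0.0577), *Fzr1* (0.0503 and 0.0550), *Cdc20* (0.0624 and 0.0666) and *Prmt1* (0.0710 and 0.0526) no longer passed by limma. *Cdc20* also lost its call without Vehicle replicate 2 (0.0551) or AG636 replicate 1 (0.0503) by limma, and *Prmt1* without Vehicle replicate 4 (0.0622) or AG636 replicate 1 (0.0526).

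The most abundant genes of this list that did not pass were *Cdk6* and *Cdk1*, kinases of the cell cycle that act on RUNX1. *Cdk6* was at 745 ± 132.7 CPM in Vehicle and 659 ± 85.6 CPM in AG636 (log2 fold change −0.17, SE 0.14, limma adjusted p = 0.467). *Cdk1* was at 351 ± 49.7 and 444 ± 28.4 CPM (0.35, SE 0.10, limma adjusted p = 0.0507), and 11 of 19 alternatives called it, among them those without Vehicle replicate 4 (limma adjusted p = 0.0190) or AG636 replicate 4 (0.0451). The T and NK cell marker sums, *Cd79a* and *Hbb-bt* also separated the groups, as given above, and their part in these 6 calls was not tested.

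**Figure D5:**
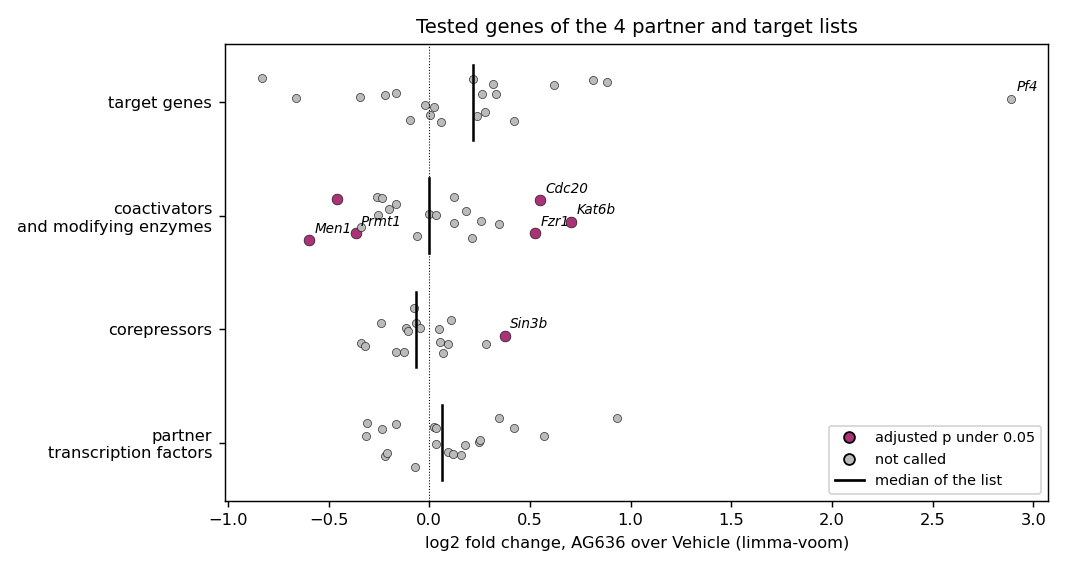
Log2 fold changes of AG636 over Vehicle (limma-voom) for the tested genes of the partner, corepressor, coactivator and target lists, with genes at an adjusted p under 0.05 in purple, a bar at the median of each list and labels on genes described in the text. Of the 7 called genes 6 are coactivators or modifying enzymes, 3 to each side of 0, and *Pf4* (2.89) is the gene farthest from 0 without being called.

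Known targets of RUNX1 or of the fusion were examined last. Of 33 target genes 21 were tested, 14 with a positive and 7 with a negative estimate. By limma-voom 0 of the 21 passed (0.0%, against 14.0%), 5 had an unadjusted p under 0.05 (against 30.7%), edgeR called 1 and DESeq2 called 2. The median log2 fold change of the list was 0.22. *Ccnd2*, which encodes cyclin D2, was the most abundant at 2179 ± 196 and 1893 ± 361 CPM (SD, n = 4 each; log2 fold change −0.22, SE 0.13, limma adjusted p = 0.297), followed by *Cdk6*. *Pf4*, the platelet factor 4 gene, had the largest estimate of the list and was singled out after its values were seen. It was measured at 0.291, 1.08, 3.40 and 5.32 CPM in Vehicle and at 23.9, 2.71, 23.6 and 13.7 CPM in AG636, with AG636 replicate 2 inside the Vehicle range (log2 fold change 2.89, SE 1.06, limma adjusted p = 0.0943). Without AG636 replicate 2 it passed (limma adjusted p = 0.00985), as did *Jup*, the plakoglobin gene (limma adjusted p = 0.0268). *Spi1*, which encodes the PU.1 factor, was at 35.9 ± 7.70 and 47.6 ± 6.64 CPM (log2 fold change 0.42, SE 0.16, limma adjusted p = 0.109). The 12 untested targets had at most 30 counts in a sample, and 6 of them, *Csf2*, *Il3*, *Trh* and *Rag1* among these, had 0 counts in every sample, which allows up to 0.434 to 0.479 CPM.

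To find genes that moved like each member over the 8 samples, log2 CPM values were centered on each gene's mean and compared by the root mean square of their differences. *Runx1* was followed most closely by *Hspa2* (0.0751 log2 units), *Kif13a* and *Itpripl2*, against a spread of 0.269 of *Runx1* itself. *Runx3* was nearest to *Prr13* (0.0651), *Borcs6* and *Gpsm3*, with a spread of its own of 0.226. *Cbfb* was nearest to *Eif4g3* (0.0671), with *Srgn* also among its 3 nearest genes, and *Cbfa2t3* to *Dcaf4* (0.0722), *Ctu1* and *Zfp954*. *Cbfa2t2* was nearest to *Zfp182* (0.0844), *Snx13* and *Lrrc17*. The nearest genes to *Runx1t1* were *Tenm4* (0.149), *Gfpt1* and *Fah*, at a larger distance in a gene with a larger spread (0.416). None of the 18 nearest genes passed the test between the groups (smallest limma adjusted p = 0.0973), against 14.0% of all tested genes. They were chosen for patterns like those of members that did not pass, so that this count adds nothing of its own. Likeness over 8 samples of 2 groups is a description, and the samples share library depth and cell make-up.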

How the data were processed

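Sorted AML cells were profiled in 4 Vehicle and 4 AG636 samples. The deposited table holds raw counts of reads for each gene. Per the study's methods, the authors removed low-quality reads, trimmed primer-derived and poly-A sequence with cutadapt, mapped reads to mm10 with HISAT2 and counted them with subread. The submitters' processing notes give cutadapt 1.9.1, HISAT2 2.0.4 and Subread 1.5.0-p3. Use of strand and of reads mapping to several places was not stated, so that counts of overlapping genes and near copies are uncertain.

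Samples were grouped by title. Genes were kept by the default filterByExpr rule (minimum count 10), scaled by TMM factors and compared by limma-voom with group as the only term (R 4.3.3, edgeR 4.0.16 and limma 3.58.1). Two-sided p-values were adjusted over 10911 genes (Benjamini-Hochberg), with 0.05 as the threshold. SDs are over 4 samples. Counting error, relative to the level, is largest for *Runx2* and *Runx1t1*, the members with the lowest counts, and floors cover counting error only.

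The 7 members, the partner, corepressor, coactivator and target lists, and the 9 marker lists were chosen with earlier results of these data known. Named are the 7 members, each called gene of the 4 lists with the 2 most abundant uncalled ones, the most abundant marker of each marker list, and the 3 genes nearest to each tested member by log2 CPM (prior count 2). Genes named outside this rule, among them the lineage genes, *Cd79a*, *Hbb-bt*, *Gfi1b*, *Smad3*, *Ldb1*, *Pf4*, *Jup* and *Spi1*, were chosen after their values were seen. Values of some genes that this rule takes are not reported here. The fit was tested on simulated counts of 10911 genes for AG636 against Vehicle. Of 200 genes changed by 1 log2 unit 196 passed the filter, 68.9% of these were recovered, and 4.26% of calls were false.

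The alternatives were other tests (DESeq2 1.42.0, the quasi-likelihood test of edgeR, limma-trend and voom with sample quality weights), other scalings (library size alone, upper-quartile or RLE factors), other filters (none, or at least 10 counts in every sample), a block for the replicate number, the omission of each sample in turn, and Vehicle replicate 4 and AG636 replicate 3 left out together. Counts of calls were also taken at an adjusted p under 0.01, and shares per kilobase of exon.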

Additional observations from a re-analysis of the deposited data

Results flagged for a closer look

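Within groups of 4, a sample was singled out where its gap to the nearest other sample, over the range of the group, was above Dixon's 95% critical value. Of 64 sets of 4 values examined in this way 4 held such a sample, and chance would give about 3.2.

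*Runx1t1* stood at 18.4 CPM in Vehicle replicate 4, while the other Vehicle samples lay between 10.7 and 11.8 CPM. *Runx1* made up 67.4% of the RUNX counts in Vehicle replicate 2, with 73.0 to 73.5% in Vehicle replicates 1, 3 and 4, and 64.5% in AG636 replicate 2, against 73.8 to 75.6% in the other AG636 samples. *Cbfb* had 0.572 counts per RUNX count in AG636 replicate 1, against 0.406 to 0.430 in the other AG636 samples.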

How the results depend on the processing

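The direction and call of *Cbfb* and *Cbfa2t3* held in all 19 alternatives. *Runx1* had a log2 fold change above 0 under edgeR (0.000288), DESeq2 (0.0191), upper-quartile factors (0.00355), library size alone (0.0431) and at least 10 counts in every sample (0.00336), and leaving out single samples gave −0.18 to 0.11. *Runx3* was at 0.0133 with library size alone, and between −0.165 and 0.0668 with single samples left out. *Runx1t1* passed with sample quality weights (0.74), and lay between 0.47 and 0.76 with single samples left out. *Cbfa2t2* passed without Vehicle replicate 4 and AG636 replicate 3 (0.61), and lay between 0.31 and 0.54 with single samples left out. *Gata2* turned negative with sample quality weights (−0.0084) and without that pair of samples (−0.14), with −0.0822 to 0.183 over single omissions, and *Rcor1* turned positive without that pair (0.0335). The count of members called was 1 with quality weights and without that pair, and 0 to 1 with single samples left out. Partner factors called were 1 with DESeq2, 1 with quality weights and 2 without that pair (0 to 2 over single omissions). Corepressors called were 2 with DESeq2, and 0 without the filter, without that pair and at an adjusted p under 0.01 (0 to 1). Coactivators and modifying enzymes called were 1 at an adjusted p under 0.01 (1 to 7). Targets called were 1 with edgeR, 2 with DESeq2, 1 with limma-trend, 2 with quality weights and 2 without that pair (0 to 2). All genes called were 435 at an adjusted p under 0.01, and 688 to 1706 over single omissions, the lowest without Vehicle replicate 3 (against 1523). The difference in *Cbfb* per RUNX count, −0.069, was −0.164 per kilobase of exon. The causes of these shifts were not tested.

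Deviations of same-numbered samples correlated at −0.14, 0.01, 0.20 and 0.14, within the −0.33 to 0.25 of samples with unlike numbers. These values showed no clear pairing by replicate number, but with 4 samples per group they cannot exclude one. With the replicate block, 1446 genes, 0 members, 1 partner factor and 2 targets were called. Depth leaves *Runx2*, 5 to 12 counts, without a test.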
